A study of Mus musculus with 2 samples.

Results

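The miR-30 family in mouse embryonic lung is described here through the 6 microRNA genes that the GENCODE annotation of mm10 names Mir30a, Mir30b, Mir30c-1, Mir30c-2, Mir30d and Mir30e. They were chosen by these names, not by their values, and are 6 of 1973 microRNA genes in the deposited count tables. Whole lungs were taken from embryos at embryonic day 15.5, of strain B6NCrl as the labels spell it, healthy and of both sexes pooled. Replicate 1 pooled the lungs of 78 embryos and replicate 2 those of 62 embryos, and small RNA with inserts under 30 nt was sequenced from each pool. Both pools carry 1 donor identifier and no genotype or treatment sets them apart, so the series holds 1 group of 2 libraries, without any comparison of conditions. In bulk lung, fewer cells of a type and less RNA per cell cannot be told apart.

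A microRNA gene makes a hairpin precursor, and the enzymes Drosha and Dicer cut from it a short duplex whose arms are called 5p and 3p. An Argonaute protein keeps 1 arm and pairs it with messenger RNAs mainly through bases 2 to 8, the seed, which lowers translation and stability of the target. MicroRNAs of the same seed form a family and share many predicted targets. For the miR-30 family, targets described elsewhere include Snai1, a transcription factor of epithelial-mesenchymal transition, and Ctgf, a matrix protein induced in fibrosis. No messenger RNA was measured in this series.

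The mature sequences show what the members have in common and where they part, which bears on how their reads can be counted. RefSeq (build GRCm38.p6) gave sequences for 4 of the 6 members, and Mir30b and Mir30d are named only. The 5p products follow, 5′ to 3′, with the seed in capitals, and with Mir384 as the other gene of that seed in RefSeq.
Mir30a, miR-30a-5p: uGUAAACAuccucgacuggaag
Mir30e, miR-30e-5p: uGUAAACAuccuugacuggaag
Mir30c-1 and Mir30c-2, miR-30c-5p: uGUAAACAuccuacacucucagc
Mir384, miR-384-5p: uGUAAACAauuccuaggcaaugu

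The seed GUAAACA stood in 5 of the 1738 mature entries of the table, those of the 4 members and of Mir384. The 5p products of the 4 members had their first 12 bases in common. Counting positions from 1 at the 5′ end, miR-30a-5p and miR-30e-5p differed by the single substitution C13U, with the base of miR-30a first. The 5p products of Mir30c-1 and Mir30c-2 were identical over all 23 bases, so that a read of that product alone belongs equally to chromosome 4 and chromosome 1.

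The longest stretch that the Mir30c-1 and Mir30c-2 hairpins share was 28 bases long. It held the whole 5p product, in capitals here, and 5 further bases on its 3′ side.
Shared by Mir30c-1 and Mir30c-2: UGUAAACAUCCUACACUCUCAGCuguga
Between Mir30a and Mir30e the longest shared stretch was 18 bases, shorter than either mature product, and between each of these and either Mir30c hairpin it was 12 bases. Each 5p product of Mir30a and Mir30e was found in 1 hairpin of the table, that of Mir30c in 2.

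The 3p arms separate the copies that the 5p arm cannot, and are shown for that reason, with bases 2 to 8 in capitals.
miR-30a-3p: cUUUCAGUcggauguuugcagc
miR-30e-3p: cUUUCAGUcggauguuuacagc
miR-30c-1-3p: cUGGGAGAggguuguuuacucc
miR-30c-2-3p: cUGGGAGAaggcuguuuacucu
These arms fell into 2 seeds, UUUCAGU for Mir30a and Mir30e and UGGGAGA for both Mir30c genes. From miR-30a-3p to miR-30e-3p the only substitution was G18A. From miR-30c-1-3p to miR-30c-2-3p there were 3, G9A, U12C and C22U, and each of the 4 products was found in 1 hairpin of the table. The deposited tables count whole precursors, so how many reads came from either arm was not measured.

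The 6 genes lie in 3 pairs. Mir30e (ENSMUSG00000065409.1, chromosome 4, 120772606 to 120772697, minus strand) and Mir30c-1 (ENSMUSG00000065490.1, chromosome 4, 120769534 to 120769622, minus strand) both lie within introns of Nfyc on its own strand, 2983 bp apart. Nfyc encodes a subunit of the transcription factor NF-Y. Mir30a (ENSMUSG00000065405.2, chromosome 1, 23272269 to 23272339, plus strand) lies in no annotated host gene. Its neighbour Mir30c-2 (ENSMUSG00000065567.1, chromosome 1, 23291701 to 23291784, plus strand) starts 19361 bp downstream and overlaps an exon of the long noncoding gene Gm27028 on the same strand. Mir30d (ENSMUSG00000065437.1, chromosome 15, 68341208 to 68341289, minus strand) overlaps an exon of the long noncoding gene Gm20732, and Mir30b (ENSMUSG00000065476.2, chromosome 15, 68337415 to 68337510, minus strand), 3697 bp away, lies in no annotated host gene. No other annotated microRNA gene lay between the members of any pair. Positions are those of GENCODE M21 on mm10, and the RefSeq hairpins of the 4 members with sequences lay at the same positions.

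Replicate 1 held 5354530 reads on the annotated strand of microRNA genes and replicate 2 held 6489390, so that 1 count equalled 0.187 and 0.154 CPM (counts per 1000000 such reads). Reads that mapped to several places, 3588198 and 4144809, stood on a summary line outside the genes. Marker microRNAs were tallied: endothelial Mir126a took 6.80% ± 0.135 of the counts, the 5 epithelial genes of the miR-200 family 3.17% ± 0.0326, and Mir143 with Mir145a, of smooth muscle, 8.04% ± 0.386 (SD, n = 2). Lists for liver, striated muscle, blood and neural tissue, 17 tabulated genes, together took 0.293% and 0.311%. Of these, 7 genes were at 0 (Mir1a-1, Mir133a-1, Mir133a-2, Mir9-2 and the 3 Mir124a copies), all of them numbered copies. Whether their reads fell among those mapped to several places was not measured. The low share therefore does not show that these tissues were absent. In the striated muscle list, Mir208a (414 ± 225 CPM) and Mir208b (524 ± 361 CPM) were detected (SD, n = 2). Intervals below are 95% exact binomial (Clopper-Pearson) intervals. They describe counting error and nothing else, as the labels name no molecular identifiers.

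All 6 members were detected, meaning at least 10 counts in both libraries, against 18.1% of all tabulated genes, and they split into 3 abundant and 3 scarce genes. The family had 197271 counts in replicate 1 and 208464 in replicate 2. This was 3.68% (interval 3.67 to 3.70) and 3.21% (3.20 to 3.23) of the microRNA reads. Mir30e, Mir30a and Mir30d held 99.3% ± 0.134 of the family's counts (SD, n = 2), and Mir30b, Mir30c-1 and Mir30c-2 together 0.674% ± 0.134. The median level of the 6 members was 3487 CPM, beside a median of 123 CPM over the 357 detected genes. The mean level of Mir30b was itself that median of 123 CPM, so scarce is meant here relative to the other members. The family median lies in the gap between the abundant and the scarce genes, where no member stood.

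Among the abundant members, Mir30e of the Nfyc intron came first, with 91334 counts (17057 CPM) in replicate 1 and 96327 counts (14844 CPM) in replicate 2. Mir30a had 66495 counts (12418 CPM) and 68031 counts (10483 CPM). Mir30d had 38299 counts (7153 CPM) and 42502 counts (6549 CPM). In both libraries Mir30e lay above Mir30a and Mir30a above Mir30d, with no overlap between the values of neighbours. Mir30e ranked 15th among all genes in both libraries, Mir30a 19th and 21st, and Mir30d 29th in both.

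The scarce members stood far below. Mir30b, the neighbour of Mir30d, had 637 counts (119 CPM) in replicate 1 and 824 counts (127 CPM) in replicate 2. Mir30c-1 had 315 counts (58.8 CPM) and 502 counts (77.4 CPM). Mir30c-2 was lowest, with 191 counts (35.7 CPM) and 278 counts (42.8 CPM). Their order was the same in both libraries and the values of neighbours did not overlap. Mir30b ranked 181st and 178th, Mir30c-1 213th and 200th, and Mir30c-2 235th and 224th. The counts of Mir30c-1 and Mir30c-2 were taken to leave out reads that fit both genes, an inference from the separate summary line, since no source used here names the counter. The 2 genes together had 506 and 780 counts, and the share of reads mapped to several places that came from miR-30c-5p was not measured, so neither their levels nor the family's share can be read as the amount of miR-30c.

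**Figure D1:**
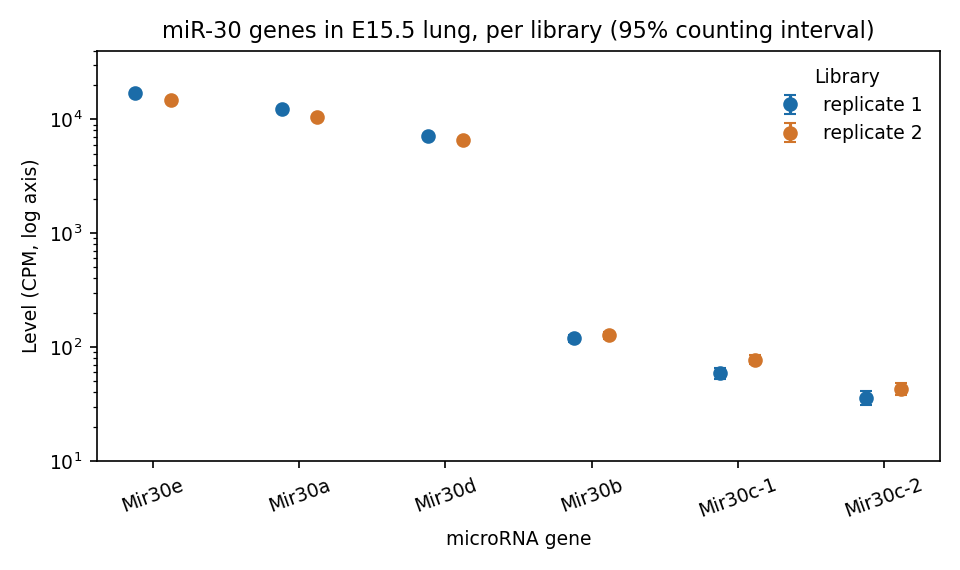
Level of each miR-30 gene in CPM on a log axis, for replicate 1 and replicate 2, with 95% exact binomial intervals that are smaller than the points for the abundant genes. Mir30e, Mir30a and Mir30d lie between 6549 and 17057 CPM, and Mir30b, Mir30c-1 and Mir30c-2 between 35.7 and 127 CPM.

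As means over the libraries, Mir30e stood at 15951 ± 1565 CPM, Mir30a at 11451 ± 1368 CPM and Mir30d at 6851 ± 427 CPM (SD, n = 2). Mir30b stood at 123 ± 5.67 CPM, Mir30c-1 at 68.1 ± 13.1 CPM and Mir30c-2 at 39.3 ± 5.07 CPM. Mir30e exceeded Mir30a by 1.39-fold (log2 ratio 0.48 ± 0.03), and Mir30a exceeded Mir30d by 1.67-fold (0.74 ± 0.08). Mir30b exceeded Mir30c-1 by 1.82-fold (0.87 ± 0.21), and Mir30c-1 exceeded Mir30c-2 by 1.73-fold (0.79 ± 0.09, SD, n = 2 for each). Each gap between neighbours was larger than the SD of either gene. The step from Mir30d to Mir30b, 55.7-fold (log2 ratio 5.80 ± 0.16), was the largest of the 5, and it falls between genes of the same pair on chromosome 15. From highest to lowest the family spanned 478-fold in replicate 1 and 347-fold in replicate 2.

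In each of the 3 genomic pairs, 1 gene was abundant and the other scarce. On chromosome 4, Mir30e exceeded Mir30c-1 by 290-fold in replicate 1 and 192-fold in replicate 2 (mean log2 ratio 7.88 ± 0.42, SD, n = 2), although both lie in introns of Nfyc. On chromosome 1, Mir30a exceeded Mir30c-2 by 348-fold and 245-fold (8.19 ± 0.36). On chromosome 15, Mir30d exceeded Mir30b by 60.1-fold and 51.6-fold (5.80 ± 0.16). In 2 of the pairs the scarce gene is a Mir30c copy, with the identical 5p product shown above, and its part in these ratios was not tested. No sequence of Mir30b or Mir30d was available here, so whether their reads also fit other genes was not tested.

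Large gaps between neighbouring precursors were common in these libraries. Among 97 adjacent pairs on the same strand, at most 20000 bp apart and both detected, the median gap was 7.91-fold, 47.4% of pairs were over 10-fold apart and 8.25% over 100-fold. All 3 miR-30 pairs were over 10-fold apart and 2 over 100-fold, at places 3 (Mir30a and Mir30c-2), 5 (Mir30e and Mir30c-1) and 22 (Mir30d and Mir30b) by size of gap.

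Exact 2-sided permutation tests over the libraries gave p = 0.333 for each of the 7 ratios between members (3 genomic pairs and the other neighbours in level). This is the smallest p that 2 values against 2 allow, and it was also 0.333 after Benjamini-Hochberg adjustment over the 11 tests of this text. None could therefore reach 0.05, and the ratios are given with their SD as a description. An SD of 2 values is itself poorly known, so exceeding it is a weak criterion.

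Among all microRNA genes, Mir30e lay between Mir99b (18388 ± 203 CPM) and Mir23a (13980 ± 467 CPM), and its values overlapped with neither. The values of Mir30a overlapped with those of Mir351 just above (12205 ± 1741 CPM) and Mir98, of the let-7 family, just below (11179 ± 131 CPM). The values of Mir30d overlapped with those of Mir652 just above (7035 ± 496 CPM) and Mir127 just below (6449 ± 171 CPM, SD, n = 2 throughout). Within each library, however, Mir351 stood above Mir30a, Mir652 above Mir30d and Mir30d above Mir127. Mir98 lay below Mir30a in replicate 1 (11272 against 12418 CPM) and above it in replicate 2 (11086 against 10483 CPM). Of these orders, only that of Mir30a and Mir98 changed between the libraries. Mir143, the most counted gene, was at 79294 ± 3771 CPM.

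Among the scarce members, Mir30b fell between Mir500 (129 ± 8.07 CPM) and Mir29a (121 ± 25.8 CPM), at rank 179 by its mean. Mir30c-1 fell between Mir181a-2 (69.3 ± 1.62 CPM) and Mir539 (65.0 ± 6.11 CPM), and Mir30c-2 between Mir666 (40.2 ± 2.43 CPM) and Mir499 (39.0 ± 10.5 CPM), the muscle microRNA of a myosin gene (SD, n = 2 for each). The values of each of the 3 overlapped with those of both its neighbours.

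**Figure D2:**
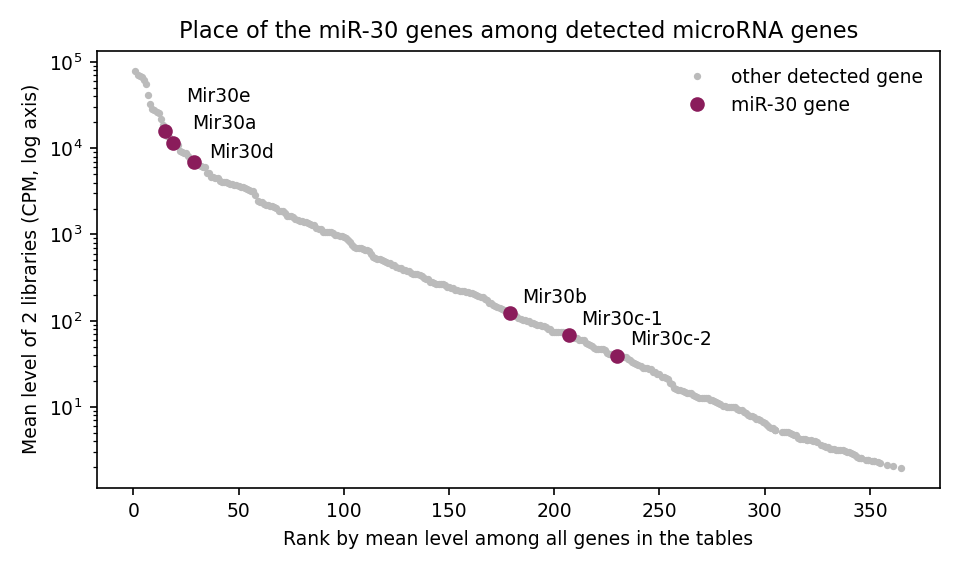
Mean level of the 2 libraries in CPM on a log axis against rank, for all 357 detected genes (grey) and the miR-30 genes (purple). Mir30e, Mir30a and Mir30d are within the first 29 ranks, and Mir30b, Mir30c-1 and Mir30c-2 lie at ranks 179, 207 and 230.

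Beyond the 6 members, Mir384 was the only gene with a RefSeq sequence that carried the seed, and it was barely counted. Genes without such a sequence, Mir30b and Mir30d among them, could not be searched. Mir384 (ENSMUSG00000065499.1), on chromosome X, had 16 counts (2.99 CPM) in replicate 1 and 11 counts (1.70 CPM) in replicate 2, just above the minimum of 10 counts and at rank 352. A further annotated gene, Mir30f, lies opposite Mir30e at the same positions of chromosome 4, and its product begins with the letters of the miR-30 seed, capitals here, 1 base earlier than in the family.
miR-30f: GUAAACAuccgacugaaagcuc
Mir30f had no row of its own in the tables. Reads opposite Mir30e numbered 1 in replicate 1 and 0 in replicate 2, below the 3 counts that a count of 0 allows (0.560 and 0.462 CPM), and the other 5 members had 0 opposite-strand reads in both libraries. Reads placed only at Mir30f were thus not detectable at this depth.

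The libraries differed in opposite directions for abundant and scarce members. Mir30a was lower in replicate 2 (log2 ratio of replicate 2 over 1 -0.24, interval -0.26 to -0.23), as were Mir30e (-0.20, interval -0.21 to -0.19) and Mir30d (-0.13, interval -0.15 to -0.11). Mir30c-1 was higher in replicate 2 (0.40, interval 0.19 to 0.60). Mir30c-2 (0.26, interval -0.01 to 0.54) and Mir30b (0.09, interval -0.06 to 0.25) had intervals that include 0. Counting error alone was thus smaller than the difference for 4 of the 6 members. The family sum was 1.15-fold higher in replicate 1 (interval 1.14 to 1.15), set by its 3 abundant genes.

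Past 1.2-fold in either direction lay 2 members, Mir30c-1 and Mir30c-2, beside 26.9% of the 357 detected genes and 14.2% of the genes with at least 100 counts in both libraries, as all 6 members had. Both were higher in replicate 2, beside 13.7% of detected genes above 1.2-fold, and no member was lower by that much, beside 13.2%. None lay past 1.5-fold, beside 9.8%. With DESeq2 size factors the 2 became 1, since Mir30c-2 lies at the threshold. The median log2 ratio was -0.02 over the members and 0.01 over all detected genes. Lower in replicate 2 were 3 of the 6 members, beside 49% of detected genes, and among the 29 genes at least as abundant as Mir30d, which include the 3 abundant members, 62.1% were lower. Some marker lists of other tissues also moved between the libraries. Their log2 ratios of replicate 2 over 1 were -0.76 for liver, -0.60 for neural tissue, 0.42 for striated muscle and 0.28 for erythroid cells. The ratio was -0.08 for leukocytes, a list of 1 gene, and 0.08 for the 5 lists of other tissues together. The liver list has 1 gene, and the neural list had 1 detected gene. Genes of striated muscle moved both ways, Mir208a by -1.17, Mir208b by 1.53, Mir206 by 1.53 and Mir499 by 0.56. The part of these lists in the ratios of the members was not tested. Each pool was sequenced once, so whether these ratios come from the pools or from library preparation cannot be told apart.

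**Figure D3:**
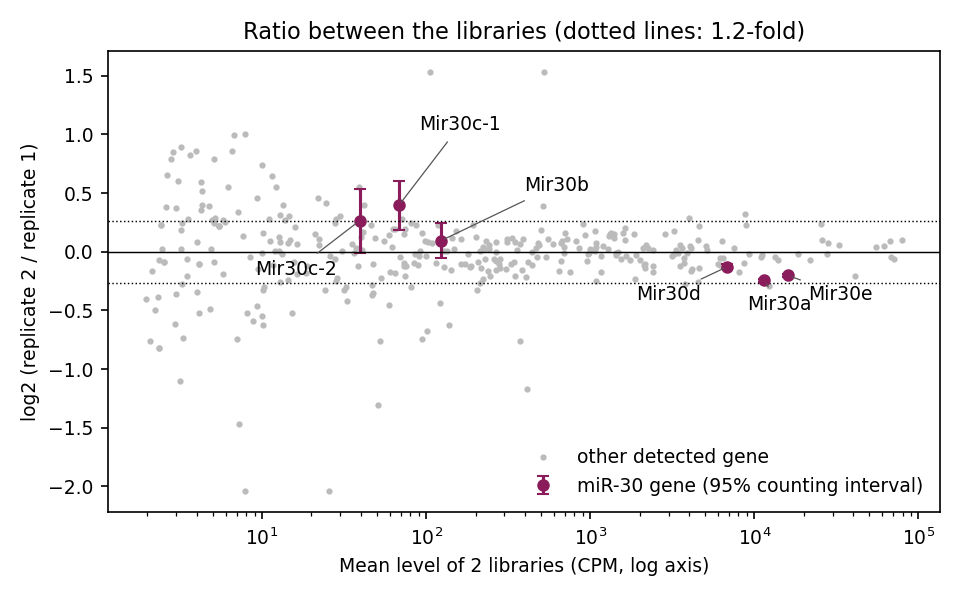
Log2 ratio of replicate 2 over replicate 1 against the mean level in CPM on a log axis, for the 357 detected genes (grey) and the miR-30 genes (purple, with 95% exact binomial intervals). Mir30a, Mir30e and Mir30d lie below 0 and inside the dotted lines of 1.2-fold, and Mir30c-1 lies above them at 0.40.

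The balance among the 3 abundant members was nearly the same in both pools. Mir30e held 46.3% of the family's counts in replicate 1 and 46.2% in replicate 2. Mir30a held 33.7% and 32.6%, and Mir30d 19.4% and 20.4%. Of the scarce genes, Mir30b held 0.323% and 0.395%, Mir30c-1 0.160% and 0.241%, and Mir30c-2 0.0968% and 0.133%. The share of Mir30e therefore moved by far less between the pools than its CPM.

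Several groups of related genes were set beside miR-30 to see how evenly counts fall among members. Of these, miR-23/27/24 is a pair of genomic clusters whose microRNAs have different seeds, not a seed family. The shares cover only genes found by name: 6 of miR-30, 10 of let-7, 3 of miR-26, 6 of miR-181 and 5 of miR-23/27/24. Mir24-1 was not found, nor were Mirlet7e and Mirlet7f-1 of let-7, and any missing gene is left out of the total of its group. The share of the leading member was 46.3% ± 0.0642 for Mir30e in the miR-30 family, 38.7% ± 1.08 for Mirlet7g in let-7, 41.0% ± 0.144 for Mir181c in miR-181, 62.3% ± 0.400 for Mir23b in miR-23/27/24 and 99.8% ± 0.0106 for Mir26b in miR-26 (SD, n = 2). The share of Mir30e thus exceeded that of Mirlet7g by 7.52 ± 1.14 percentage points and that of Mir181c by 5.26 ± 0.0800. Its differences from the shares of Mir23b and Mir26b were -16.1 ± 0.465 and -53.5 ± 0.0536 points. Each of the 4 differences exceeded its SD, and exact 2-sided permutation tests gave p = 0.333 for each, the smallest possible here. The difference from miR-181 turned to -12.2 points when genes with a mature product identical to that of another gene were left out, because Mir181c then held more of what remained. Leaving out genes can only raise a leader's share, and in miR-26 it leaves Mir26b alone. Like the Mir30c genes, both other miR-26 genes (Mir26a-1 and Mir26a-2), 4 let-7 genes, 4 miR-181 genes and Mir24-2 have a product identical, within RefSeq, to that of another gene. By this match Mirlet7a-1 was among the 4 let-7 genes and Mirlet7a-2 was not, so a gene not counted here may still share reads with another. These shares are therefore of counted reads, and the amount of miR-26a, for one, was not measured. The 3 leading genes held 99.3% ± 0.134 of miR-30 and 99.0% ± 0.0172 of miR-23/27/24, beside 87.1% ± 0.673 of let-7 and 87.1% ± 0.299 of miR-181, and miR-26 has only 3 genes.

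**Figure D4:**
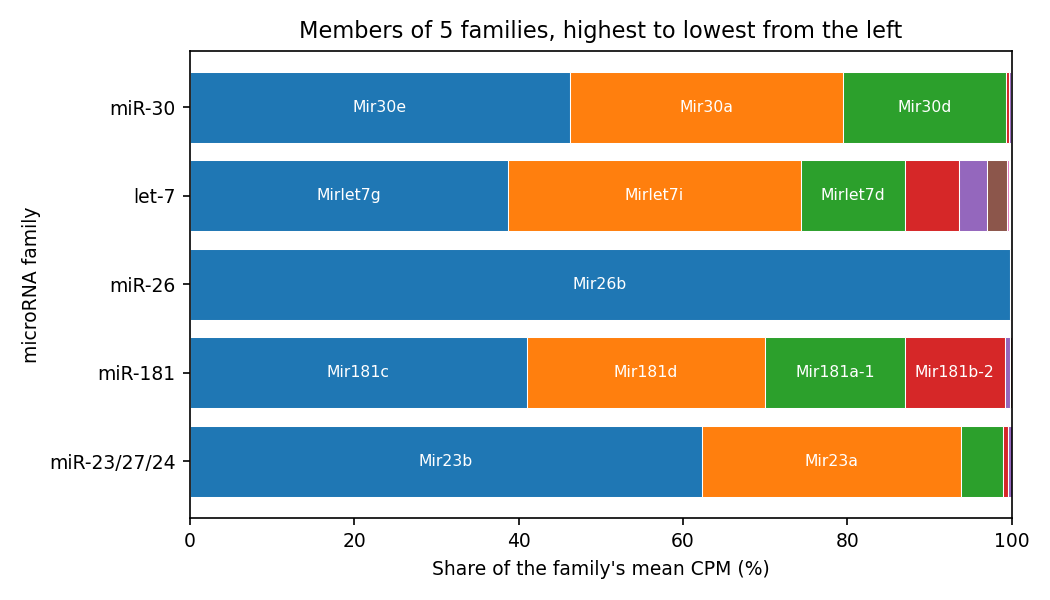
Share of each gene in the mean CPM of its family, for miR-30, let-7, miR-26, miR-181 and miR-23/27/24, with genes stacked from highest to lowest. In miR-30 the first 3 segments, Mir30e, Mir30a and Mir30d, fill 99.3% of the bar, and in miR-26 Mir26b alone fills 99.8%.

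Identical mature products were a feature of Mir30c-1 and Mir30c-2 that other genes share. Of the tabulated genes with a mature entry in RefSeq, 87 had a product identical, within that table, to that of another gene, and 50.6% of these were detected, with a median of 53.7 CPM (quartiles 14.1 and 216 CPM). Of the 829 genes without such a product, 33.8% were detected, with a median of 187 CPM (quartiles 14.3 and 1485 CPM). Mir30c-1 (68.1 CPM) and Mir30c-2 (39.3 CPM) lay between the quartiles of both classes, so their levels do not tell the classes apart. Mir30a (11451 CPM) and Mir30e (15951 CPM), which have no such product, lay above the upper quartile of both.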

How the data were processed

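The authors deposited raw read counts per microRNA gene for each library, made on assembly mm10 with annotation M4, per the library readmes. Which aligner and counter were used is not given in the sources used here. Both tables had 1973 genes and count columns for both strands, the annotated and the opposite strand, told apart by their totals. Annotated-strand counts were used, and summary lines (16.8% and 17.2% of reads unmapped, 31.4% and 30.6% mapped to several places) were kept out of library sizes. CPM, means and SDs over the 2 replicates were computed here. Names and positions came from GENCODE M21, which matched 1894 of 1973 identifiers with versions ignored (Mir30a has another version there). Members were chosen by name; the other genes named are the seed relatives, the genes next above and below each member in mean CPM, family leaders and Mir143. The members and lists were chosen with earlier results of these data known. The limit of 20000 bp for adjacent pairs was set after seeing the data. Nothing but the pools separates the replicates, so no p-value compares conditions. Each permutation p reflects only whether the values of the 2 genes or families overlap. Alternatives used counts of both strands, 1 replicate at a time, a total without Mir143, edgeR 4.0.16 TMM, DESeq2 1.42.0 size factors, other minimum counts and folds, and genes with identical products left out. Python 3.11.15, numpy 2.4.6, pandas 2.3.3, scipy 1.17.1, matplotlib 3.10.9 and R 4.3.3 were used.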

Additional observations from a re-analysis of the deposited data

How the results depend on the processing

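Of 115 alternative values for 29 results, 109 kept their direction and moved by less than the limit set for them. The limit was the SD between replicates, the counting interval, or 1.5 times for a count, and direction alone for values with a test. Part of the 109 was fixed in advance. With 2 libraries, leaving 1 out cannot move a mean by as much as the SD, and sign flips keep the main value. Those values therefore say nothing on how stable the results are. With Mir143 left out of the total, Mir30d rose to 7440 CPM and Mir30b to 134 CPM, as every gene does with a smaller total. The number of members past 1.2-fold between the libraries, 2, was 0 at a fold of 1.5 and 1 with DESeq2 size factors, an alternative chosen after seeing the data. Without genes that have an identical product, the share of Mir30e in its family was 46.4%. Its difference from the share of Mir181c in miR-181 then turned to -12.2 percentage points. Leaving out 1 replicate changed no direction. The family's share is a share of counted reads: 18.2 and 19.9 times as many reads as the family's counts mapped to several places, and what miR-30c-5p added to them was not measured. The ratios and differences between genes are paired within libraries. With the replicate number as a block, exact 2-sided sign flips within libraries, added after seeing the data, gave p = 0.50 for each of the 11, the smallest that 2 libraries allow, with the same mean values.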
